A study of Mus musculus with 2 samples.

Results

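Snai1, Snai2, Twist1, Twist2, Zeb1, Zeb2 and Prrx1, transcription factors linked to endothelial-to-mesenchymal transition (EndMT), were followed together with Cdh2 (N-cadherin) and Vim (vimentin), 2 structural genes commonly read as signs of that transition. The 9 genes were picked by symbol from the 33696 genes of the count matrices, and each symbol was found once. The suprarenal abdominal aorta was profiled by single-cell RNA sequencing (scRNA-seq) after 28 days in a mouse model of abdominal aortic aneurysm. There was 1 library per condition, each made from pooled tissue, so no difference between the conditions has a replicate check and no test between them was possible. Pooling is given as 5 mice per sample in the series design, whereas the extraction protocol names 1 control mouse and 2 AngII mice.

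The mice of both groups were 5-month-old male C57BL/6J animals with no engineered allele named. The Control group received normal saline. The AngII+HS group received angiotensin II at 1500 ng/kg/min from an osmotic minipump together with high salt, given as drinking water with 0.9% NaCl and 0.2% KCl. The 2 agents were always combined, so the effects of angiotensin II and of salt cannot be told apart.

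EndMT is a process in which endothelial cells loosen their junctions and take on features of mesenchymal cells such as fibroblasts and smooth muscle. Snail (Snai1) and Slug (Snai2) are zinc finger repressors, Zeb1 and Zeb2 are zinc finger and homeodomain repressors, Twist1 and Twist2 are basic helix-loop-helix factors, and Prrx1 is a homeobox factor of mesenchyme. Several of them bind E-box sequences and can repress cadherin genes of epithelial or endothelial junctions. Many of these factors are also part of the normal make-up of connective tissue cells, lymphocytes or myeloid cells. A level in endothelium therefore has to be read beside the levels in the neighbouring cells whose RNA may leak into it.

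Promoter sequences are shown for Snai1, which had the widest difference between the libraries in vascular endothelium, and for Twist2 and Prrx1, whose levels moved most closely together across cell types. Each is the 250 bases before the annotated start, 5′ to 3′ on the gene's strand, from RefSeq on GRCm38.p6. Capitals mark matches to an E-box (CAGGTG, or CACCTG on the other strand) or to a GC box (GGGCGG, or CCGCCC on the other strand).
Snai1 (chr2:167537945-167538194, plus strand): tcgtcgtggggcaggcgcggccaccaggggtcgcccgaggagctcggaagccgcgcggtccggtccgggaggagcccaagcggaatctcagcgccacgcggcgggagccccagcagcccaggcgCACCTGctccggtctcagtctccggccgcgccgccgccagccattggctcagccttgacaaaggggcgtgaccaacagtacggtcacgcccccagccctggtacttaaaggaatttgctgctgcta
Twist2 (chr1:91801211-91801460, plus strand): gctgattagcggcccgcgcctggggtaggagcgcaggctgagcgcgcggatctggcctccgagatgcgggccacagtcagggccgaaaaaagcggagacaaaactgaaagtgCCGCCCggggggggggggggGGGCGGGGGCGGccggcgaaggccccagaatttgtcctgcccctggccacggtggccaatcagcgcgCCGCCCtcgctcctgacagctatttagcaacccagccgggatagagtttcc
Prrx1 (chr1:163313651-163313900, minus strand): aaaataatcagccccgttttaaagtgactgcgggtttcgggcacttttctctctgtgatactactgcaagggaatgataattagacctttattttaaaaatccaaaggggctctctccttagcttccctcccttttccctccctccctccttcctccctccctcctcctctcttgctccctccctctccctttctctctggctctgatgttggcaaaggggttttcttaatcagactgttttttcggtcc
The Snai1 promoter held 1 E-box, which began 126 bases before the start, and no GC box. The Twist2 promoter held 4 GC boxes and no E-box, and the Prrx1 promoter held neither. Of the 32851 RefSeq promoter windows of this length, 17.2% held this E-box and 32.7% held this GC box, so neither match is rare. The GC content was 70.0% for Snai1, 68.8% for Twist2 and 47.6% for Prrx1.

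In the GRCm39 annotation the genes lie at chr2:167380113-167384734 on the plus strand for Snai1, chr16:14523425-14527252 on the plus strand for Snai2, chr12:34007645-34009828 on the plus strand for Twist1 and chr1:91729176-91796542 on the plus strand for Twist2. Zeb1 lies at chr18:5591851-5775467 on the plus strand and Zeb2 at chr2:44873644-45007464 on the minus strand. Prrx1 lies at chr1:163041844-163142033 on the minus strand, Cdh2 at chr18:16700793-16942381 on the minus strand and Vim at chr2:13578738-13587639 on the plus strand. All 9 are protein-coding genes, and their gene identifiers in the matrices match this annotation.

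The Control library held 11448 barcodes and 86618995 unique molecular identifiers (UMIs), and the AngII+HS library 24804 barcodes and 117146856 UMIs. After filtering, 10269 and 19734 cells were kept, with medians of 7265 and 3069.5 UMIs per cell. Levels below are UMIs summed over the cells of a type in a library, scaled to 1000000 UMIs of those cells (CPM), and intervals are 95% intervals for counting error only. The barcode list recorded with each sample had the length of the other sample's matrix, so the matrices were used as recorded, and the lists shared 67 barcodes. Directions below rest on that record, in which VSMCs were 49.6% of the cells kept in Control and 3.53% in AngII+HS, macrophages 4.86% and 22.7%, and neutrophils 0.964% and 23.5%. Loss of smooth muscle and entry of leukocytes are known features of the aneurysmal wall.

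Vascular endothelial cells (VECs) numbered 797 in Control and 1198 in AngII+HS. They were divided into c11 (Fn1+, 488 and 410 cells), c12 (Cd36+, 143 and 431 cells) and c13 (Lrg1+, 166 and 357 cells). Lymphatic endothelial cells (LECs) numbered 137 and 150, fibroblasts 2609 and 4738, and vascular smooth muscle cells (VSMCs) 5094 and 696. The 5 VEC markers (Cdh5, Pecam1, Fabp4, Kdr and Mmrn2) summed to 11162 and 14584 CPM in VECs, to 168 and 188 CPM in fibroblasts and to 428 and 483 CPM in VSMCs. T and B cells (232 and 2109 cells), which should lack most of these genes, served as the measure of free RNA.

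Snai1 was detected in every endothelial subtype and was higher in the AngII+HS library in all 3 VEC subtypes. VECs held 27.4 CPM in Control and 71.4 CPM in AngII+HS, a log2 ratio of 1.38 (1.08 to 1.69). Within subtypes it went from 11.1 to 29.5 CPM in c11 (1.42), from 74.7 to 120.4 CPM in c12 (0.69) and from 40.9 to 81.8 CPM in c13 (1.0), and each of these intervals left out 0. The order of the subtypes, c12 above c13 above c11, was the same in both libraries. T and B cells held 2.08 and 2.77 CPM. The make-up of the VECs also differed, since c11, where Snai1 was lowest, supplied 488 of 797 Control VECs and 410 of 1198 AngII+HS VECs. With the 3 subtypes weighted equally, the log2 ratio in VECs was 0.87. When each cell was thinned to 1000 UMIs, 2.82% (1.77 to 4.23) of Control VECs and 6.27% (4.92 to 7.86) of AngII+HS VECs held a Snai1 UMI, against 0.437% and 0.246% of T and B cells. Without thinning, the shares were 8.41% and 21.0% of VECs, at median depths of 4315 and 3950 UMIs, and 0.862% and 0.664% of T and B cells, at 3788 and 2142 UMIs.

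Among the named cell types, with VECs taken as 1 type, Snai1 was highest by CPM in LECs in both libraries, but there the difference in level had the opposite sign. In the AngII+HS library c12 lay above LECs, while c13, at 81.8 CPM against 80.3 CPM, was level with them. The small unnamed subcluster described below was near the LEC level in Control, from 11 cells, and above it in AngII+HS. LECs held 119 CPM in Control and 80.3 CPM in AngII+HS (log2 ratio -0.57, -1.02 to -0.13), from 147 and 62 UMIs. The lower level was not seen in the shares of cells at equal depth, since after thinning to 1000 UMIs 3.7% (1.21 to 8.43) of Control LECs and 4.29% (1.59 to 9.09) of AngII+HS LECs held a Snai1 UMI, from 5 and 6 cells. In the Control library LECs stood above every other type by CPM beyond counting error. The shares at equal depth did not show this order. The Control interval of LECs included the thinned share of Control VECs, and the AngII+HS share of LECs was below that of VECs. In the AngII+HS library they did not stand apart from VECs. Fibroblasts resembled VECs in direction, with 17.8 and 42.8 CPM (1.26, 1.03 to 1.5). VSMCs were low at 3.26 and 2.91 CPM. Pericytes held 32.6 and 40.7 CPM, and neutrophils 22.1 and 20.9 CPM, so the gene was not restricted to cells of the vessel wall.

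Snai2, the close relative of Snai1, was not higher in the AngII+HS library in VECs. They held 12.7 and 10.8 CPM (-0.24, -0.79 to 0.31), and with equal subtype weights the log2 ratio was -0.82, while T and B cells held 0 and 0.79 CPM. In c12 it was lower in the AngII+HS library, at 29.0 and 12.2 CPM (-1.24, -2.26 to -0.23) from 19 and 18 UMIs. In c11 it was near 5 CPM in both libraries, at 4.96 and 5.21 CPM, and in c13 it was 23.9 and 15.3 CPM with an interval that included 0. LECs held 0 and 1 UMI. Fibroblasts (19.8 and 18.5 CPM) and VSMCs (20.4 and 19.9 CPM) did not differ from each other beyond counting error in either library.

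Twist1 was a gene of c11 among the endothelial cells. In c11 it was 44.6 CPM in Control and 103 CPM in AngII+HS (1.21, 0.89 to 1.54), from 117 and 238 UMIs. In c12 it came to 3 UMIs in each library, and in c13 to 0 and 2 UMIs, none of which stood above T and B cells (0 and 0.79 CPM). Over all VECs the levels were 28.9 and 39.7 CPM (0.46, 0.14 to 0.79), since c11 made up fewer of the AngII+HS VECs, and with equal subtype weights the log2 ratio was 1.11. The fibroblast markers summed to 194 and 890 CPM in c11. At 1000 UMIs per cell, 3.78% (2.26 to 5.91) and 7.59% (5.18 to 10.7) of c11 cells held a Twist1 UMI. Fibroblasts had the highest level of all types in both libraries, 67.6 and 63.0 CPM, followed by pericytes with 39.7 and 55.8 CPM, which in the AngII+HS library did not differ from fibroblasts beyond counting error. In the AngII+HS library the c11 level was above that of fibroblasts as a whole, and VSMCs stayed at 18.8 and 20.7 CPM.

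**Figure D1:**
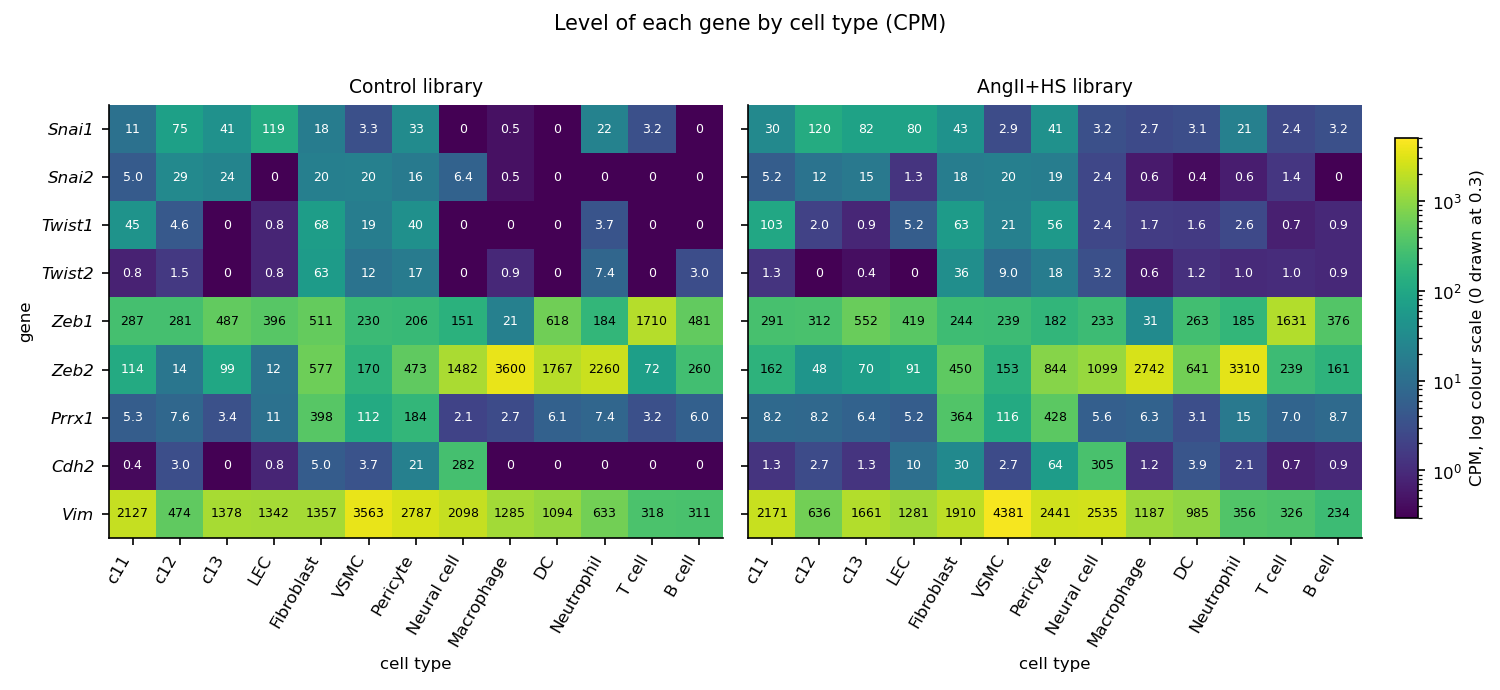
Level of each of the 9 genes (rows) in each cell type (columns) as CPM, with the Control library on the left and the AngII+HS library on the right, on a log colour scale. Snai1 stood out in c12, c13 and LECs, Twist1 in c11 and fibroblasts, Prrx1 and Twist2 in fibroblasts, pericytes and VSMCs, and Zeb2 in macrophages and neutrophils.

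Twist2 and Prrx1 were genes of fibroblasts, pericytes and VSMCs and were not above T and B cells in VECs. For Twist2, VECs held 3 and 4 UMIs (0.722 and 0.654 CPM), fibroblasts 63.2 and 36.0 CPM (-0.81, -0.96 to -0.67), and VSMCs 12.2 and 9.04 CPM. For Prrx1, VECs held 5.29 and 7.52 CPM, T and B cells 4.16 and 7.71 CPM, fibroblasts 398 and 364 CPM, and VSMCs 112 and 116 CPM.

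Zeb1 was expressed throughout the endothelium with little difference between the libraries, while its fibroblast level was far lower in the AngII+HS library. VECs held 328 and 396 CPM (0.27, 0.18 to 0.37). Among subtypes the highest level was in c13, with 487 and 552 CPM, against 287 and 291 CPM in c11 and 281 and 312 CPM in c12. LECs held 396 and 419 CPM. Fibroblasts held 511 CPM in Control and 244 CPM in AngII+HS (-1.07, -1.12 to -1.01), so the endothelial level was below the fibroblast level in the first library and above it in the second. VSMCs held 230.1 and 239 CPM. T cells had the highest Zeb1 of all types, 1710.1 and 1631 CPM, so lymphocytes give no free RNA reference for this gene.

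Zeb2 was mainly a gene of myeloid cells, with 3600.1 and 2742 CPM in macrophages and 2259.8 and 3309.6 CPM in neutrophils. Over all VECs it was 95.02 and 99.5 CPM (0.07, -0.12 to 0.25), but the subtypes went in different directions. It was 114 and 162 CPM in c11 (0.51, 0.28 to 0.73), 13.7 and 48.3 CPM in c12 (1.81, 0.81 to 3.0) and 98.8 and 70.3 CPM in c13 (-0.49, -0.87 to -0.10). In LECs it was 12.2 and 90.6 CPM (2.90, 2.08 to 3.81) from 15 and 70 UMIs. Macrophage and neutrophil markers were also higher in the AngII+HS library in c12 and in LECs, as they were in c11 and c13. The 5 macrophage markers summed to 15.2 and 69.4 CPM in c12 and to 8.10 and 58.2 CPM in LECs, with 1 of the 5 at 0 in Control LECs. The 5 neutrophil markers summed to 12.2 and 179.5 CPM in c12, with 3 of the 5 at 0 in the Control library, and to 6.48 and 179.9 CPM in LECs. In c11 and c13, where the Zeb2 ratios had opposite signs, the neutrophil markers went from 9.92 to 198 CPM and from 14.8 to 224 CPM. Erythroid markers differed more in c12, where the 5 summed to 32.0 and 2079 CPM, against 33.2 and 69.9 CPM in T and B cells and 13.8 and 28.5 CPM in LECs. The part of these markers in the Zeb2 values, and in those of Snai1, Snai2 and Vim in c12, was not tested. When double the number of presumed doublets was removed, 92 LECs of the AngII+HS library remained with 8 Zeb2 UMIs (20.1 CPM), and the log2 ratio in LECs was 0.77. TMM scaling lowered every log2 ratio of LECs by 0.14. In fibroblasts Zeb2 was 577 and 450.0 CPM (-0.36).

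Cdh2, which mesenchymal and neural cells use for contacts between like cells, was close to absent from VECs, with 3 UMIs (0.722 CPM) in Control and 10 UMIs (1.63 CPM) in AngII+HS. Neither value stood above T and B cells, which held 0 and 4 UMIs. In LECs there were 1 and 8 UMIs (0.81 and 10.4 CPM), a log2 ratio of 3.68 (0.78 to 9.15). The second value stood above T and B cells although it rested on 4 cells. Fibroblasts held 4.99 and 30.4 CPM (2.61, 2.19 to 3.05), the widest difference of any of the 9 genes in fibroblasts. Neural cells had the highest level in both libraries, 282 and 305 CPM.

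Vim, an intermediate filament gene of mesenchymal cells that endothelial cells also express, was high in all of these cells. VECs held 1708 and 1607 CPM, a log2 ratio of -0.09 (-0.13 to -0.04), although within subtypes the ratios were 0.03 in c11, 0.42 in c12 and 0.27 in c13. The level was lowest in c12, at 474 and 636 CPM, and c12 supplied 143 of 797 and 431 of 1198 VECs. With equal subtype weights the ratio in VECs was 0.17. Fibroblasts held 1357 and 1909.8 CPM (0.49) and VSMCs 3563 and 4381 CPM (0.30), the highest of all types in both libraries.

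**Figure D2:**
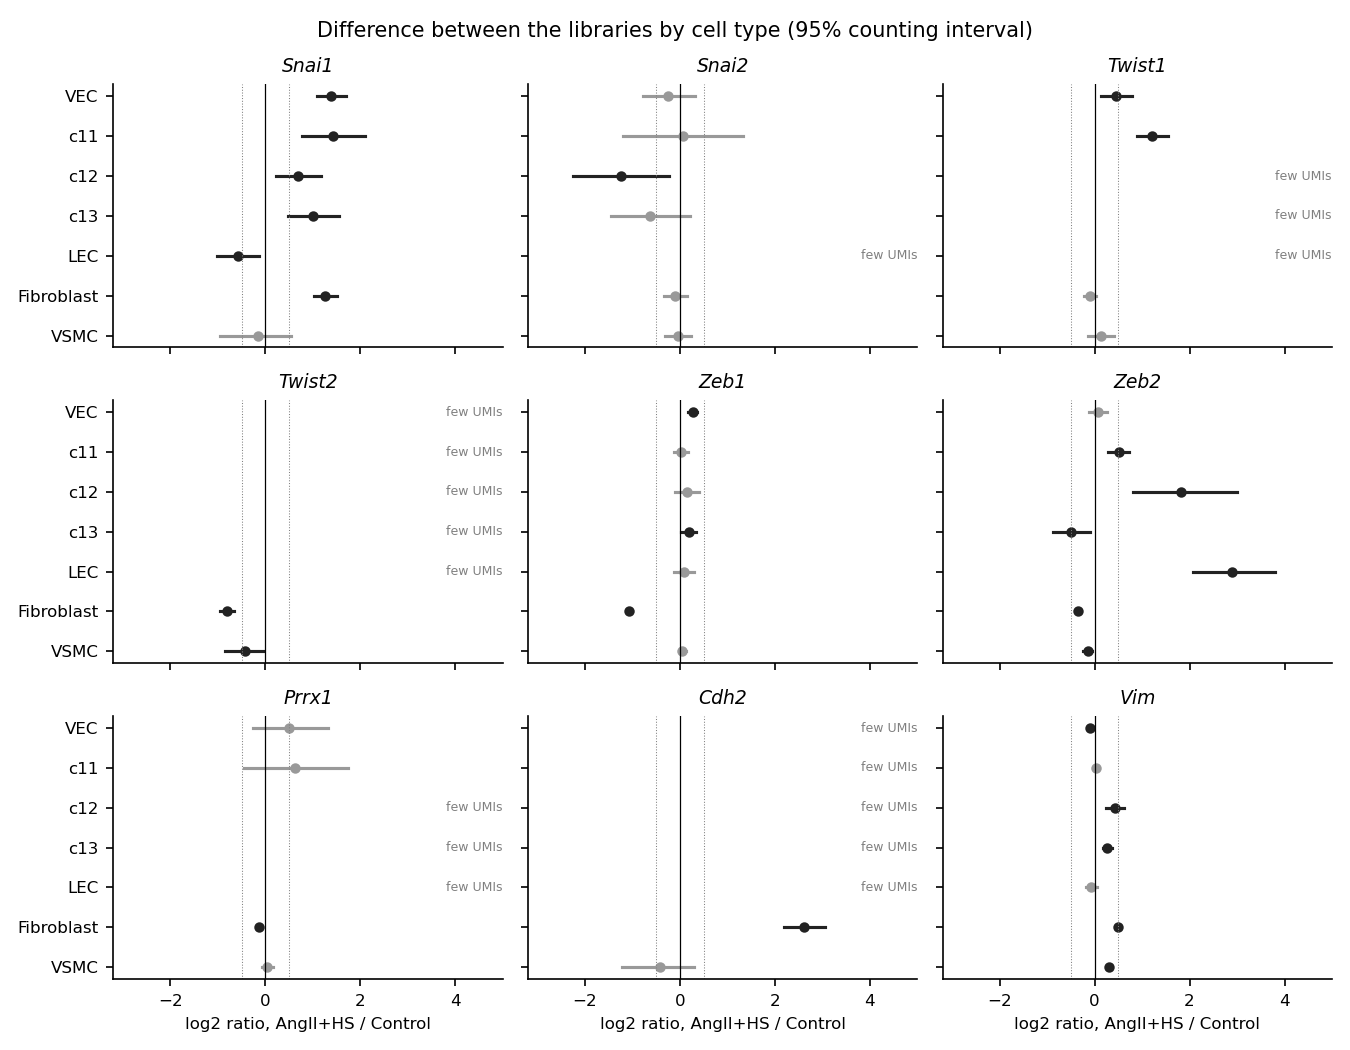
Log2 ratio of AngII+HS over Control (x axis) for each of the 9 genes (panels) in VECs, their 3 subtypes, LECs, fibroblasts and VSMCs (rows), with 95% intervals for counting error. Black marks intervals that leave out 0, grey those that include it, dotted lines stand at 0.5 and -0.5, and types with under 20 UMIs of a gene carry no point. Snai1 lay to the right of 0 in VECs and fibroblasts and to the left in LECs, and Twist1 lay to the right in c11.

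To read the endothelial levels against RNA from other cells, each was expressed as a percentage of the level in fibroblasts of the same library. The 5 fibroblast markers (Dcn, Lum, Col1a1, Col3a1 and Pdgfra) had a median of 0.934% (0.594 to 1.41) in Control VECs and 1.70% (1.22 to 2.11) in AngII+HS VECs. T and B cells had medians of 0.56% (0.233 to 1.42) and 1.73% (1.48 to 2.34). The fibroblast markers summed to 179.9 and 596 CPM in VECs and to 115 and 675 CPM in T and B cells, so this RNA was higher in both cell types in the AngII+HS library, and its part in the differences of the 9 genes was not tested. Twist2, at 1.14% and 1.81%, and Prrx1, at 1.33% and 2.07%, lay within the ranges of the markers in VECs. Snai1 reached 154% and 167%, Snai2 64.5% and 58.3%, Twist1 42.7% and 63.1%, and Vim 126% and 84.1%. Zeb1 reached 64.2% and 162%, and Zeb2 16.5% and 22.1%. Cdh2 gave 14.5% and 5.37%, from 3 and 10 UMIs. Against the VSMC level, the 5 VSMC markers had a median of 2.68% (2.48 to 10.2) and 1.89% (1.09 to 6.80) in VECs, and Prrx1 gave 4.71% and 6.48%. Snai1, Snai2, Twist1 and Vim were above T and B cells beyond counting error in VECs of both libraries, 4 of the 9 genes in each. Of all genes with at least 50 UMIs in these cells, 36.1% of 9086 in the Control library and 37.3% of 11408 in the AngII+HS library were above T and B cells in the same way, and of the 9 genes 6 and 7 had that many UMIs. Zeb1 and Zeb2 were below T and B cells, which express them, and Twist2, Prrx1 and Cdh2 were not above. With neutrophils as the reference, 3 of the 9 genes were above in Control (Twist1, Zeb1 and Vim). In AngII+HS 5 were above (Snai1, Snai2, Twist1, Zeb1 and Vim). Snai1 and Snai2 were thus not above neutrophils beyond counting error in Control, where Snai1 was 27.4 against 22.1 CPM (0.31, -0.85 to 1.79). The Control neutrophils were few (99 cells, 271704 UMIs) and held 6 Snai1 and 0 Snai2 UMIs. VECs held 53 Snai2 UMIs (12.7 CPM), and the lower bound of that ratio was -0.14, so this small reference could not decide for Snai2.

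**Figure D3:**
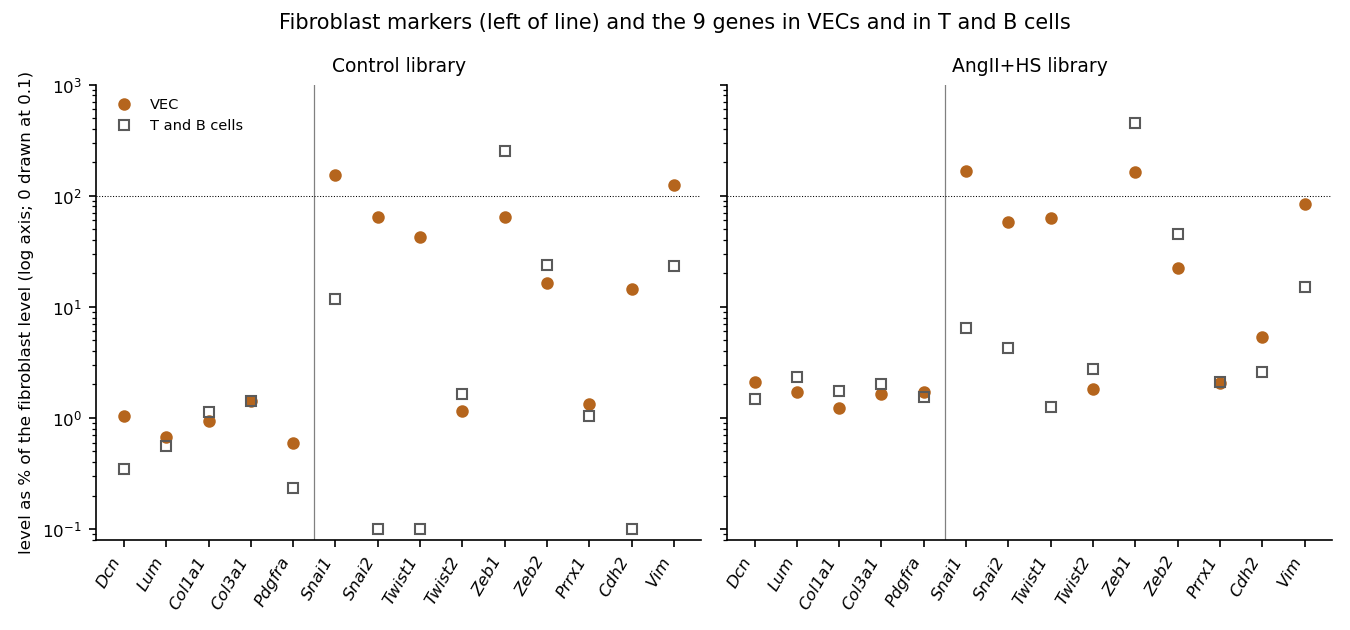
Level in VECs (filled circles) and in T and B cells (open squares) as a percentage of the fibroblast level of the same library, on a log axis, for the 5 fibroblast markers and the 9 genes. Twist2 and Prrx1 lay among the fibroblast markers at the level of free RNA, whereas Snai1, Snai2, Twist1 and Vim in VECs lay well above them.

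Single VECs seldom held UMIs of more than 1 of the 5 factors least expected in lymphocytes (Snai1, Snai2, Twist1, Twist2 and Prrx1). At least 1 was seen in 190 of 797 Control VECs (23.8%) and in 411 of 1198 AngII+HS VECs (34.3%). At least 2 were seen in 21 and 56 cells. By subtype these were 2.25% (1.13 to 4.00) and 8.29% (5.81 to 11.4) of c11 cells. They were 4.90% and 1.39% of c12 cells, and 1.81% and 4.48% of c13 cells. Because most cells held no UMI of any factor, these counts cannot show whether the factors were expressed apart. After thinning to 1000 UMIs, the share of VECs with at least 1 was 7.30% (5.57 to 9.35) and 10.7% (8.91 to 12.6), and 3 and 1 cells held at least 2. T and B cells gave 3.02% and 2.80% at their own depth and 1.31% and 1.53% after thinning. Fibroblasts gave 38.2% and 39.0% after thinning, of which 101 and 199 cells held at least 2. In the AngII+HS library, VECs with such a UMI had 630 CPM of the summed fibroblast markers and VECs without one had 560 CPM, and the VSMC markers summed to 811 and 866 CPM. In the Control library the fibroblast markers summed to 171 and 184 CPM and the VSMC markers to 909.6 and 905 CPM in VECs with and without such a UMI. Within subtypes the gaps were wider in places, with fibroblast markers at 1084 CPM in AngII+HS c11 cells with such a UMI and 672 CPM in those without, and VSMC markers at 1601 and 1059 CPM in Control c13 cells. These marker sums are at each cell's own depth, and VECs with such a UMI were deeper, with a median of 6177.5 UMIs against 3878 in the Control library. After thinning, fibroblast markers were lower with such a UMI, at 496 and 661 CPM in AngII+HS VECs with and without one. They were 690 and 858 CPM in AngII+HS c11, and 123 and 207 CPM in Control VECs. The values with such a UMI rest on 119, 42 and 57 cells of 1000 UMIs each, in that order. No intervals were computed for these sums, so they do not show whether the wider c11 gap at own depth came from depth. The VSMC markers of Control c13 stayed higher, at 1300 and 1019 CPM, from 10 cells with such a UMI.

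Snai1 and Twist1 had their highest levels in different VEC subclusters, although some held both. In c11, 19 and 53 cells held a Snai1 UMI, 73 and 113 a Twist1 UMI, and 4 and 21 held both. Among the 3 subclusters of c11, Snai1 was lowest in the one led by Klk10 and Ptprj (0 and 8.60 CPM, 274 and 172 cells), and Twist1 was 38.0 and 130.4 CPM there. The subcluster led by Slco1c1 and Krt18 held 60.8 and 115 CPM of Twist1 and 11.7 and 31.3 CPM of Snai1. The third, led by Alpl and Dkk2 (70 and 71 cells), went the other way, with 2 and 0 UMIs of Twist1 and 38.6 and 67.4 CPM of Snai1. It also had the highest Vim of the VEC subclusters, 3148 and 4303 CPM, and it was the weakest match to the c11 markers, with a score of -0.02. In c13, the subcluster led by Csf3 and Mctp1 held 59.2 and 86.6 CPM of Snai1, and the one led by Adarb2 and Lbp held 0 and 44.8 CPM, the latter from 0 and 12 UMIs. Cells of c12 formed 1 subcluster, but at a higher resolution a group led by Inhbb and Hilpda, with 6 Control and 184 AngII+HS cells of c12, came apart from it. Its AngII+HS cells had 3564 CPM of erythroid markers and the other AngII+HS cells of c12 had 929.99 CPM. Without that group the c12 log2 ratios were 0.85 for Snai1, -0.75 for Snai2, 2.24 for Zeb2 and 0.09 for Vim. The Snai2 value came from 19 and 15 UMIs, and no interval was computed for it. At that resolution another group, of 1 Control and 120 AngII+HS cells, came apart. Timp1, Fam167b, Nav3 and Col15a1 were among its leading genes and those of the Csf3 and Mctp1 subcluster. It was outside c13 there, and the c13 log2 ratios were 0.12 for Zeb1 and 0.13 for Vim, against 0.18 and 0.27. A further subcluster of 11 and 33 cells, led by the pericyte genes Rgs4 and Notch3 and left out of the VECs, held 121 and 142 CPM of Snai1.

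**Figure D4:**
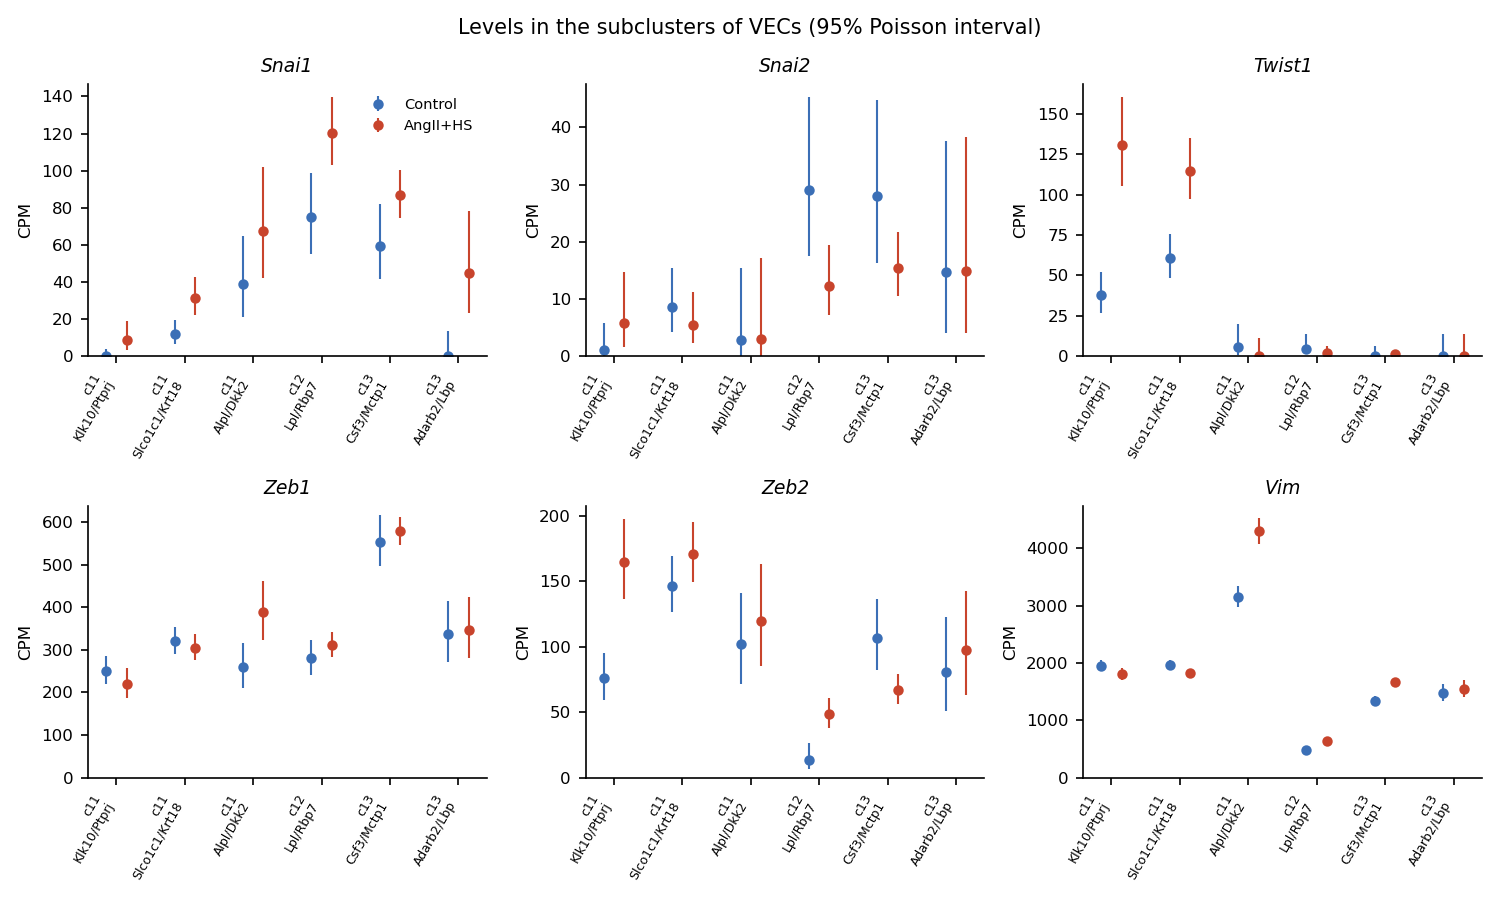
Level (CPM, y axis) of 6 of the genes in the 6 named VEC subclusters (x axis, with the subtype and leading genes), Control in blue and AngII+HS in red, with 95% Poisson intervals. Twist1 was highest in the Klk10 and Slco1c1 subclusters of c11, and Snai1 was highest in c12.

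Fibroblasts fell into 4 clusters, of which 3 held at least 257 cells in each library. Cdh2 was higher in the AngII+HS library in all 3, at 3.02 and 15.6 CPM in the cluster led by Dio2 and Fst, 5.00 and 31.1 CPM in that led by Ptx3 and Sfrp4, and 12.7 and 45.8 CPM in that led by Comp and Fmod. Zeb1 was lower in all 3, with 588 and 249 CPM, 417 and 244 CPM, and 589.9 and 246 CPM. Snai1 was higher in all 3, with 25.1 and 48.0 CPM, 12.3 and 41.3 CPM, and 11.8 and 36.6 CPM. Twist2 was lower in all 3, most in the Comp and Fmod cluster, at 87.0 and 20.7 CPM. The cluster led by Prg4 and Mmp13 held 2 Control cells and 166 AngII+HS cells and had 103 CPM of Twist2 in the latter. Prrx1 differed in sign between clusters, with 242 and 293 CPM in the Dio2 and Fst cluster and 561 and 439 CPM in the Ptx3 and Sfrp4 cluster.

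**Figure D5:**
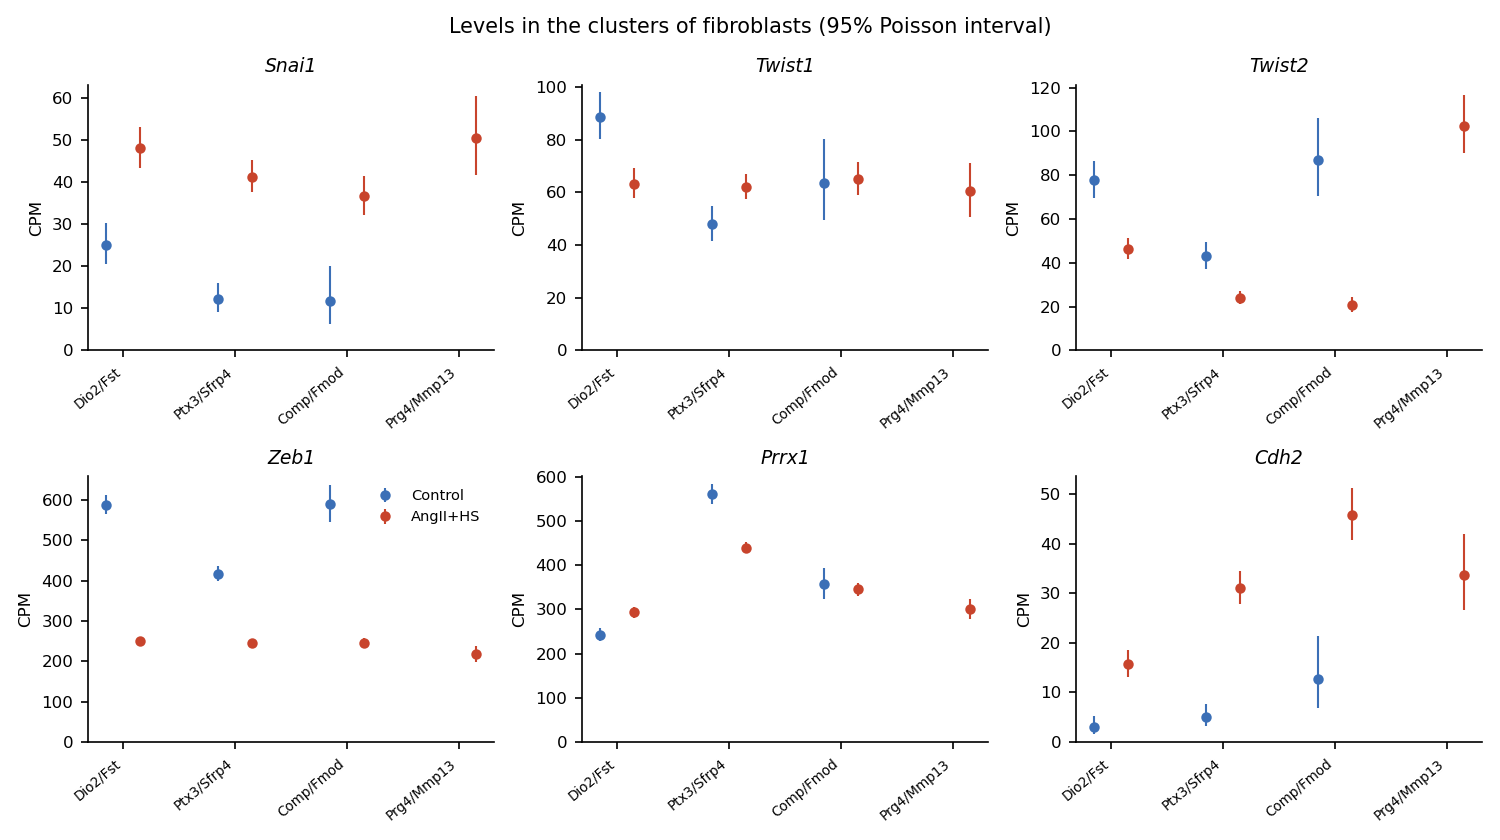
Level (CPM, y axis) of 6 of the genes in the 4 fibroblast clusters (x axis, named by leading genes), Control in blue and AngII+HS in red, with 95% Poisson intervals, and no point for the 2 Control cells of the Prg4 cluster. Zeb1 and Twist2 lay lower, and Snai1 and Cdh2 higher, in the AngII+HS library in the 3 clusters with both points.

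The counts of these genes past a log2 ratio of 0.5 were set against all genes with at least 50 UMIs over both libraries. In VECs, 19.1% of 10749 genes lay above 0.5 and 14.2% below -0.5. Of the 7 of the 9 genes with enough UMIs, 1 (Snai1) lay above and 0 below, with a median of 0.27 beside 0.05 for all genes. In fibroblasts, 12.6% of 13593 genes lay above and 20.7% below, and of the 9 genes 2 (Snai1 and Cdh2) lay above and 2 (Zeb1 and Twist2) below, with a median of -0.10 beside -0.13. In VSMCs, 12.9% of 13584 genes lay above and 21.1% below, and 0 of the 9 genes lay on either side, with a median of -0.03 beside -0.04. In fibroblasts the split depended on scaling, with 1713 genes above and 2807 below by library totals and 2666 above and 1624 below by TMM factors, which raised every fibroblast log2 ratio by 0.20. TMM turned the signs of Snai2 (0.11), Twist1 (0.10) and Prrx1 (0.07) in fibroblasts, whereas Snai1, Cdh2, Zeb1 and Twist2 kept theirs.

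Other genes tied to EndMT were read in VECs in 6 lists. Of the 16 other transcription factors linked to the transition, 10 had enough UMIs, 4 lay above 0.5 and 2 below -0.5, with a median of 0.19. Sox4, a factor of progenitor and mesenchymal cells, was 54.6 and 226 CPM (2.05), and Tcf4 (E2-2), which binds E-boxes, was 833 and 1734 CPM (1.06), with 1.3 and 0.6 at equal subtype weights. Klf4, a flow-induced factor that favours endothelial quiescence, was 1412 and 790.3 CPM (-0.84), and Foxc1 was 147 and 90.8 CPM (-0.69). Of 6 other cadherins, 2 (Cdh5 and Cdh13) had enough UMIs and 0 passed the fold, with a median of -0.12. Of 8 filament genes, 7 had enough UMIs, and Lmnb1 lay above (21.2 and 43.6 CPM, 1.04) and Plec below (403 and 237 CPM, -0.77), with a median of 0.40. T and B cells held more Lmnb1 than VECs, 138 and 208 CPM.

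Of 12 junction and receptor genes of endothelium, 2 lay above 0.5 and 4 below -0.5, with a median of -0.05. Emcn, a sialomucin of capillary and venous endothelium, was 317 and 814 CPM (1.36), and Kdr, a receptor of vascular endothelial growth factor, was 193 and 355 CPM (0.88). With equal subtype weights these ratios were 0.68 and 0.09. Nos3, the endothelial nitric oxide synthase, was 331 and 150.5 CPM (-1.14), and Ocln, a tight junction gene, was 31.3 and 14.7 CPM (-1.09), with -0.82 and -0.44 at equal subtype weights. Tek (409 and 245 CPM, -0.74) and Pecam1 (3109 and 1979 CPM, -0.65) also lay below, with -0.49 and -0.35 at equal subtype weights. Of 12 mesenchymal effector genes, 6 lay above and 1 below, with a median of 0.64. The 4 named by rule were Col1a1 (27.4 and 172 CPM), Lum (8.66 and 45.1 CPM), Col3a1 (39.2 and 195 CPM) and Col1a2 (44.3 and 187 CPM), with log2 ratios of 2.65, 2.38, 2.31 and 2.08. T and B cells held 33.2 and 244 CPM of Col1a1, 7.27 and 61.4 CPM of Lum, 39.5 and 239.7 CPM of Col3a1 and 36.4 and 217 CPM of Col1a2, so in the AngII+HS library lymphocytes had more of each than VECs. In c11 of that library, Col1a2 (279 CPM) and Col3a1 (266 CPM) were above the T and B cell level. Col1a1 (204 CPM) and Lum (54.7 CPM) were below it there. Dcn, Fn1, Tagln and Fap were higher in AngII+HS VECs than in T and B cells. They held 181, 1073, 354 and 20.3 CPM against 126, 219, 290 and 1.78 CPM. For Dcn, Fn1 and Tagln only c11 was above T and B cells, at 361, 2624 and 568 CPM. These genes were below T and B cells in c12 (84.3, 154 and 194 CPM) and in c13 (64.4, 125 and 244 CPM). Fap was above in each subtype. Acta2, Cnn1, S100a4 and Postn were lower in VECs than in T and B cells. Acta2 differed by subtype in the AngII+HS library, where T and B cells held 418 CPM. It was above that level in c11 (592 CPM) and below it in c12 (267 CPM) and c13 (193 CPM). Of 13 genes of transforming growth factor beta input, 1 lay above and 2 below, with a median of 0.10. Eng, a co-receptor, was 427 and 705 CPM (0.72, but 0.41 with equal subtype weights), and the receptor genes Acvrl1 (196 and 84.1 CPM, -1.22) and Bmpr2 (779.9 and 508 CPM, -0.62) were lower.

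The genes whose pattern was most like that of each gene were found over 27 sums of cell type and library, which share libraries and depths, among 11933 genes. By Pearson's r of log2(CPM + 5), the nearest to Prrx1 was Hoxc8 (0.98), to Cdh2 Sorcs1 (0.95), to Twist2 Cd248 (0.93), to Twist1 Scara3 (0.92), to Snai1 Ebf3 (0.91), to Snai2 Hotairm1 (0.90), to Vim Tmco3 (0.90), to Zeb2 Cd44 (0.87) and to Zeb1 Pdcd4 (0.81). The next were Plekhh2 and Kcne4 for Prrx1, Il1rapl1 and Daam2 for Cdh2, Gas1 for Twist2, Chrd and Mfap5 for Twist1, and Tshz2 and Tspan12 for Snai1. For Snai2 they were Runx1t1 and Igfbp7, for Vim Capns1 and Elovl1, for Zeb2 Zeb2os and Mitf, and for Zeb1 Unkl and Rnf138. Zeb2os is transcribed opposite to Zeb2, and whether the counting used strand is not given in the sources used here. Among the 9 genes themselves, Twist2 and Prrx1 were the closest pair (0.91), followed by Twist1 and Prrx1 (0.74) and Twist1 and Twist2 (0.72), and Zeb1 and Zeb2 were opposed (-0.56).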

How the data were processed

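Single cells of the suprarenal abdominal aorta were profiled with the 10x platform, 1 library per condition. The authors deposited UMI counts per gene and cell, not normalized, in matrices whose header names Cell Ranger 8.0.1. The study's methods give another Cell Ranger version and GRCm39, whereas the submitters' processing notes give mm10, and the files hold no coordinates. Gene identifiers were matched to a GRCm39 annotation, and promoters came from RefSeq on GRCm38.p6. The barcode list recorded with each sample had the length of the other sample's matrix, and matrices were used as recorded.

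A cell was kept if it had 500 or more UMIs from 200 or more genes and a mitochondrial share under 20%. Scrublet (in scanpy 1.11.5) ranked cells as doublets, and the top-scoring were removed at 0.8% per 1000 cells, which took 1019 Control and 4826 AngII+HS cells (9.03% and 19.6%). Clustering used Seurat 5.3.0 with integration, 2000 variable genes without the 9 genes, 30 components and resolution 0.8, which gave 26 clusters. VECs were clustered again with 20 components and resolution 0.4. Clusters were named from marker lists, where a name among all cells needed a mean log2 score over 1, a threshold set after the clusters were seen. VEC subclusters had no such threshold.

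For each cell type of a library, counts were added up and divided by their total (CPM). Intervals of levels are exact Poisson intervals and those of ratios exact conditional binomial ones, at 95%. They cover counting error only, and cells are not replicates. For counts of genes past a log2 ratio of 0.5, 0.5 UMIs were added and at least 50 UMIs over both libraries were required. TMM factors came from edgeR 4.0.16. Shares of cells were taken at each cell's own depth and after thinning to 1000 UMIs, leaving out shallower cells. The ratio step was tested on simulated data. List genes were named where they had at least 200 UMIs and the widest log2 ratios past 0.5, up to 4 per list, and pattern likeness used genes reaching 20 CPM, of which the 3 nearest to each gene were named. A gene among these is not reported here. The 9 genes and the lists were chosen with earlier results of these data known.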

Additional observations from a re-analysis of the deposited data

Results flagged for a closer look

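The difference in Snai1 between the libraries had opposite signs in blood and lymphatic endothelium. The log2 ratio was 1.38 in VECs and -0.57 in LECs, a gap of 1.95 (VEC minus LEC). It was 1.26 in fibroblasts, so that LECs stood apart from them by -1.83 (LEC minus fibroblast). With 1 library per condition neither difference was tested, and the intervals, 1.08 to 1.69 in VECs and -1.02 to -0.13 in LECs, cover counting error only. The lower LEC level was not seen in shares of cells thinned to 1000 UMIs, of which 3.7% in Control and 4.29% in AngII+HS held a Snai1 UMI.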

How the results depend on the processing

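No paired analysis was possible because each condition had 1 library. Of 57 log2 ratios, 15 were past 0.5 in size with an interval that left out 0, and 13 of these stayed past 0.5 under each alternative tried for them. The alternatives were judged by the value alone, without an interval. The exceptions were Zeb2 in c11 and Snai1 in LECs, and 0 of the 15 changed sign. Zeb2 in c11 stayed past 0.5 in 7 of 12 alternatives, with 0.38 as the lowest value (double doublet removal). Snai1 in LECs did so in 11 of 12, and fell to -0.45 with equal weight per cell. Of 706 values from alternatives, 643 lay within the interval of the value reported and 63 outside. The ratio of Snai1 in VECs ranged from 0.87 (equal subtype weights) to 1.56 (equal weight per cell), and that of Twist1 from 0.23 (no doublet removal) to 1.11 (equal subtype weights). Equal subtype weights, fibroblasts without the Prg4 cluster, and c12 without the Inhbb subcluster were chosen after seeing the data.

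The number of the 9 genes above 0.5 in VECs was 2 (Snai1 and Prrx1) in place of 1 with no doublet removal, with double doublet removal, when libraries were merged without integration, with equal weight per cell, and without cells rich in fibroblast and VSMC marker UMIs. Equal weight per cell put 1 gene (Snai2) below -0.5 in VECs. In VSMCs, where 0 passed, 1 lay above (Zeb2) and 1 below (Twist2) with no doublet removal, 3 lay below (Snai1, Twist2 and Cdh2) with double removal, and 2 lay below (Twist2 and Cdh2) when merged without integration. The cause was not tested. Equal weight per cell gave no count of genes above the T and B cell level.

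The counts over all genes depend on the UMI minimum. With at least 1 UMI, 6288 genes lay above and 5606 below in VECs, 4263 and 7323 in fibroblasts, and 7229 and 4787 in VSMCs. With at least 200 UMIs these were 1152 and 768, 1017 and 1632, and 1124 and 1906. In fibroblasts TMM gave 2666 above and 1624 below, and equal weight per cell 1844 below. Depth limits Twist2 and Cdh2 in VECs, which held 3 and 4, and 3 and 10 UMIs, and differences of these genes in VECs were not detectable at this depth. In LECs the interval of the Cdh2 ratio left out 0, from 1 and 8 UMIs.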

Other observations

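The cells named pericytes, after the mural cells of small vessels, had wider differences in several of the 9 genes than VSMCs. Prrx1 was 184 CPM in Control and 428 CPM in AngII+HS (log2 ratio 1.21, 0.99 to 1.44), Cdh2 was 20.6 and 63.8 CPM (1.63, 0.99 to 2.31) and Zeb2 was 473 and 844 CPM (0.84, 0.69 to 0.98). The pericytes numbered 168 and 222 cells. The VSMC markers summed to 32122 and 20838 CPM in these cells, against 28365 and 39031 CPM in VSMCs. The 5 pericyte markers summed to 2680 and 5724 CPM in them, against 5787 and 6451 CPM in VSMCs. In Control neither sum set them apart from VSMCs as pericytes, and both sums differed between the libraries. Markers of other cells also differed there, with fibroblast markers at 1082 and 2258 CPM, VEC markers at 739 and 2986 CPM and neutrophil markers at 3.54 and 400.3 CPM. The part of all these markers in the values above was not tested.

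In neural cells, where Cdh2 was highest, its level was 282 and 305 CPM with an interval of the ratio that included 0, and Zeb2 was 1482 and 1099 CPM. In T cells Zeb2 was 71.7 and 239 CPM (1.74, 1.30 to 2.20). In T and B cells the macrophage markers summed to 20.8 and 108 CPM and the neutrophil markers to 11.4 and 233 CPM, and their part in this value was not tested. The small subcluster led by Rgs4 and Notch3 held 106 and 48.4 CPM of Cdh2, from 14 and 15 UMIs, and 98.3 and 9.69 CPM of Twist1, from 13 and 3 UMIs, in 11 and 33 cells.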
